A study of Mus musculus with 7 samples.

Results

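The 10 genes described here serve MHC class II antigen presentation and were measured in mouse LSK cells, the Lineage-negative, Sca-1-positive, Kit-positive fraction of bone marrow that holds the hematopoietic stem cells and early progenitors. They were taken by symbol, 10 of 39179 gene identifiers in the deposited table: the chains of the antigen-presenting molecules (H2-Aa, H2-Ab1, H2-Eb1), the invariant chain (Cd74), the chains of the peptide-loading molecule DM (H2-DMa, H2-DMb1, H2-DMb2), the chains of its partner DO (H2-Oa, H2-Ob) and the transactivator Ciita. The study compared 3 RNA-seq libraries of Jmjd1c f/f Vav1Cre mice with 4 of Vav1Cre control mice, all from animals aged 7 weeks of the strain given as C57/BL6. Both genotypes carry Vav1Cre, a Cre recombinase driven by Vav1 regulatory sequences, which act in blood cells of all lineages and not in stem cells alone. The Jmjd1c f/f alleles, which Cre recombines, are what the groups differ in, and Jmjd1c encodes a histone demethylase of the jumonji family. LSK cells were sorted by flow cytometry, and no label ties a library to its own mouse, so the p-values cover the variation among these 7 libraries only, part of which may be technical.

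Class II molecules are pairs of an alpha and a beta chain that show peptides from endosomes to CD4+ T cells. The invariant chain encoded by Cd74 fills the peptide groove of new class II molecules and guides them to endosomes, where proteases cut it down to a fragment called CLIP. DM then exchanges CLIP for a peptide, and DO, where it is made, binds DM and holds it back. Ciita binds no DNA itself: it is recruited by RFX, CREB and NF-Y factors that sit on a conserved group of promoter elements, the X and Y boxes among them, and it sets the transcription of the whole group. B cells, dendritic cells and activated macrophages are the best known class II-positive cells, and class II has also been described on mouse stem and progenitor cells.

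Values are normalized read counts, that is, reads per gene divided by a size factor of the library. The libraries held 4303712 to 6436519 reads in genes, and each of the 10 genes had at least 49 reads in every library, with a highest value of 72123 reads for Cd74 in control 4. Jmjd1c itself had 294, 244 and 254 normalized read counts in the Jmjd1c f/f Vav1Cre libraries (hereafter Jmjd1c libraries), against 458, 466, 516 and 512 in the control libraries. It was lower in Jmjd1c libraries by limma (log2 fold change -0.89 ± 0.09 SE, adjusted p = 0.00407), and the groups did not overlap. Without limma's intensity trend the log2 fold change was again -0.89 but the adjusted p was 0.117, in a fit that called 0 genes in all. Gene-level counts include exons outside the recombined segment, which the labels do not give. The LSK gene Kit was present throughout, with 6232, 7268 and 5880 in Jmjd1c libraries and 6700.3, 5822, 6091 and 4778 in control libraries. Control 4 stood apart from the other libraries in class II genes and in markers of macrophages and dendritic cells, so the fold change of each of the 10 genes is given with and without it.

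Of the 10 genes, 8 lie together in the H2 complex on mouse chromosome 17 (GRCm38, GENCODE M21), in the order H2-Oa (34092340 to 34095234), H2-DMa (34119541 to 34139101), H2-DMb2 (34143307 to 34151555), H2-DMb1 (34153072 to 34160230), H2-Ob (34238903 to 34254414), H2-Ab1 (34257689 to 34269419), H2-Aa (34282744 to 34287823) and H2-Eb1 (34305867 to 34316674). H2-Aa lies on the minus strand and the other 7 on the plus strand. All are annotated as protein coding, as are Cd74 and Ciita, which lie on other chromosomes.

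The promoters of the H2 genes are shown because the family is known for its common promoter elements, and because the DO genes, whose levels varied differently across libraries from those of the antigen-presenting chains, hold the same letters. The sequences are from RefSeq (GRCm38.p6), 5′ to 3′ on the gene's own strand, from position -140 to position -11 relative to the annotated start, and capitals mark the letters GNAAC of an X-like element and GATTGG of a Y-like element, the inverted form of the CCAAT letters that NF-Y reads. The windows are chr17:34305727-34305856 (plus strand) for H2-Eb1, chr17:34287834-34287963 (minus) for H2-Aa, chr17:34153051-34153180 (plus) for H2-DMb1, chr17:34145109-34145238 (plus) for H2-DMb2, chr17:34092239-34092368 (plus) for H2-Oa and chr17:34238765-34238894 (plus) for H2-Ob.
H2-Eb1: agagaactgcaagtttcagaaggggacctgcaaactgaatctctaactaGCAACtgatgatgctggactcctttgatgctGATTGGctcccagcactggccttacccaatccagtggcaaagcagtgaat
H2-Aa: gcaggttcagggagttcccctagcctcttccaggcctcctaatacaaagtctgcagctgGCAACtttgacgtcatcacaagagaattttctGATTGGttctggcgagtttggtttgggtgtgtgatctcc
H2-DMb1: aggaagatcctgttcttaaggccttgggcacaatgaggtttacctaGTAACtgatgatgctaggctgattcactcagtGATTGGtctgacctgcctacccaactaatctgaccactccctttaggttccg
H2-DMb2: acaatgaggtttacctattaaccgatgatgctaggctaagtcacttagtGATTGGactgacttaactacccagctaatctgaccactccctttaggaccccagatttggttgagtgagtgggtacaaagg
H2-Oa: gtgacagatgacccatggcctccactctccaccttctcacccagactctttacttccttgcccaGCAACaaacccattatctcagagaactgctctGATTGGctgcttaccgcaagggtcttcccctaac
H2-Ob: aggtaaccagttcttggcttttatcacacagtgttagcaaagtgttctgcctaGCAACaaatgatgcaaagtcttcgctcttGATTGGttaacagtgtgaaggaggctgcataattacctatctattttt

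In H2-Eb1, H2-Aa, H2-DMb1, H2-Oa and H2-Ob the X-like letters stood 29 to 32 bases upstream of the Y-like letters, from first base to first base. Both strands of the whole 300-base promoters were searched for GNAAC followed by GATTGG within 40 bases, and the pair was found in 5 of 8 member windows (H2-DMa has windows for 2 starts) and in 630 of all 32851 promoters (1.92%). The letters were chosen after these promoters had been read, so the count is a description. GATTGG alone was in 16.1% of all promoters and GNAAC alone in 84.8%. H2-DMb2, the near copy of H2-DMb1, has the Y-like letters marked above without the X-like letters in front of them, and H2-DMa had no such pair. H2-Ab1, Ciita and Cd74 are named only. A match is no proof of binding, and no match says only that these letters are not in this window.

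Per kilobase of exon, Cd74 was the most abundant of the 10 transcripts and Ciita the least, in both genotypes. Cd74 averaged 11562 ± 3419 normalized read counts per kb in Jmjd1c libraries (SD, n = 3) and 17954 ± 13221 in control libraries (SD, n = 4). Next came the antigen-presenting chains: H2-Ab1 averaged 2038 ± 493 per kb in Jmjd1c libraries and 2899 ± 2075 per kb in control libraries. H2-Eb1 averaged 1727 ± 551 per kb in Jmjd1c libraries and 2732 ± 2103 in control libraries, and H2-Aa 1285 ± 493 in Jmjd1c libraries and 2193 ± 1704 in control libraries. The invariant chain was thus above each of the chains it accompanies.

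The loading genes followed. H2-DMa averaged 526 ± 39.1 per kb in Jmjd1c libraries and 554 ± 126 per kb in control libraries, and H2-DMb1 270.4 ± 50.1 in Jmjd1c libraries and 355 ± 181 in control libraries. H2-Ob averaged 142 ± 17.8 per kb in Jmjd1c libraries and 164 ± 5.81 in control libraries, and H2-Oa 131 ± 7.81 in Jmjd1c libraries and 163 ± 19.7 in control libraries. The DM alpha chain was thus above the DM beta chains, while the distance between the DO chains depends on the length used. H2-DMb2 (35.9 ± 7.16 per kb in Jmjd1c libraries, 46.3 ± 12.8 in control libraries) and Ciita (17.8 ± 3.92 in Jmjd1c libraries, 23.6 ± 16.9 in control libraries) closed the order.

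Each gene was above the next in 7 of 7 libraries, apart from H2-Ob and H2-Oa, where the order held in 5 of 7. All 10 kept their rank by the mean when the longest transcript was used as the length, but the distances between neighbours changed. H2-Ob then averaged 285 ± 35.9 per kb in Jmjd1c libraries and 329.9 ± 11.7 in control libraries, and H2-Oa 138 ± 8.2 in Jmjd1c libraries and 171 ± 20.6 in control libraries, with H2-Ob above in 7 of 7. With that length H2-DMb1 was above H2-Ob in 4 of 7 libraries and H2-DMb2 above Ciita in 6 of 7, so neither pair is separated under both lengths, nor are H2-Ob and H2-Oa. Together the 10 genes took 0.926%, 0.572% and 0.612% of the normalized reads in Jmjd1c libraries, against 0.55%, 0.826%, 0.705% and 2.12% in control libraries. Cd74, H2-Aa, H2-Ab1 and H2-Eb1 made up 88.6% to 95.3% of these reads. The 2.12% of control 4 is the highest share of the 7 libraries, and the other 3 control libraries overlap the Jmjd1c libraries.

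**Figure D1:**
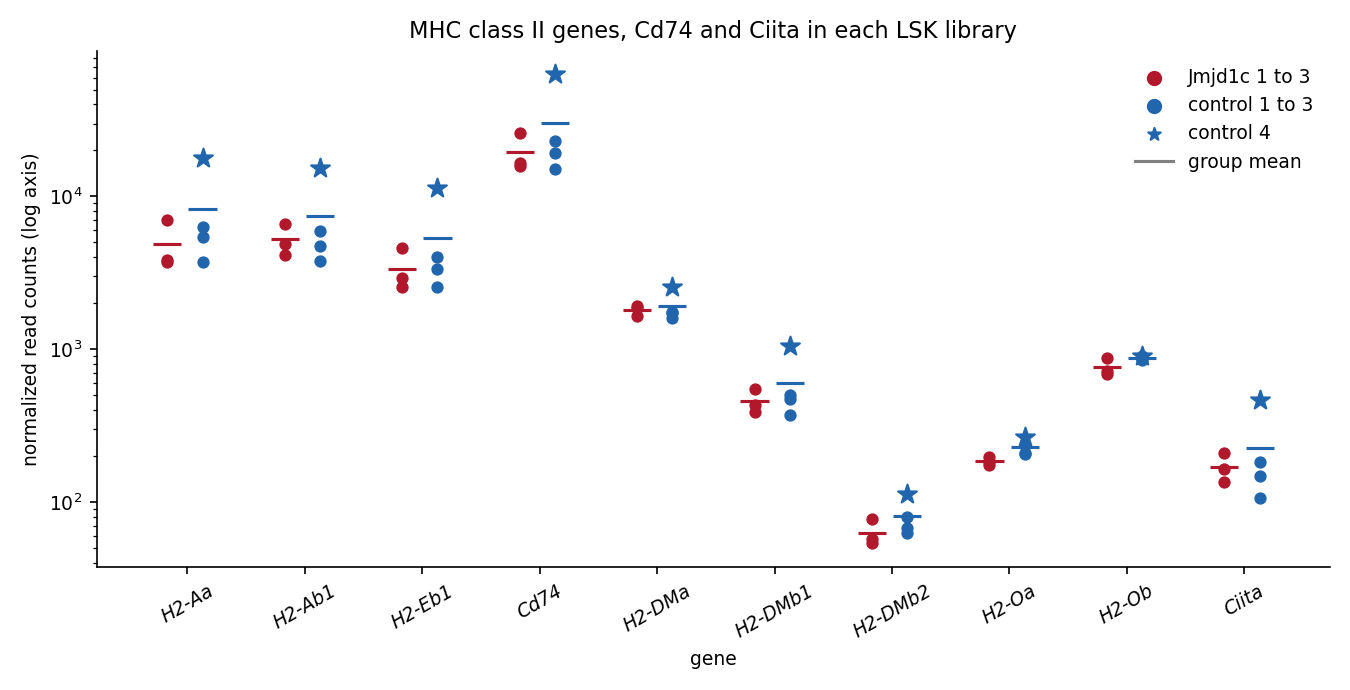
Normalized read counts of the 10 genes in each LSK library on a log axis, with Jmjd1c libraries left of control libraries for each gene and short lines for the group means. Control 4, drawn as a star, is the highest library for 9 of the 10 genes, for example 63066 for Cd74, while the dots of the Jmjd1c libraries and of controls 1 to 3 share one range for most genes.

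None of the 10 genes was called between Jmjd1c and control libraries. All 10 passed the filter on low values, 0 of 10 reached an adjusted p under 0.05 by limma, and 231 of 12813 genes tested (1.80%) did. At an unadjusted p under 0.05 there were 2 of 10, H2-Oa and H2-Ob, beside 19.7% of all genes tested, and edgeR and DESeq2 also called 0 of 10, each with 2 of 10 at an unadjusted p under 0.05. Over all genes, edgeR called 1.82% and DESeq2 5.21% of those with an adjusted p. All 10 log2 fold changes were below 0, with a median of -0.31 against -0.008 over all genes tested. Without control 4, 4 of 10 were below 0, the median of the 10 was 0.01, and again 0 of 10 were called, beside 1.66% of the genes tested in those 6 libraries. The shared sign of the 10 thus depends on control 4.

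The antigen-presenting chains overlapped between Jmjd1c and control libraries, and none was called. H2-Aa, the alpha chain of the A molecule, had 7043, 3745 and 3853 normalized read counts in Jmjd1c libraries, against 3729, 6271, 5410.4 and 17907 in control libraries. Its log2 fold change was -0.56 ± 0.42 (SE; 95% interval -1.48 to 0.35, adjusted p = 0.475 by limma), and -0.11 ± 0.22 without control 4 (adjusted p = 0.831). The Jmjd1c values lie between the lowest and the highest control value, and control 4 is 3.49 times the mean of controls 1 to 3.

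H2-Ab1, the beta chain that pairs with it, had 6629.8, 4157 and 4916 in Jmjd1c libraries, against 3785, 5904, 4758 and 15330.4 in control libraries. The log2 fold change of H2-Ab1 was -0.31 ± 0.37 (95% interval -1.11 to 0.50, adjusted p = 0.679 by limma) and turned to 0.12 ± 0.16 without control 4 (interval -0.24 to 0.47, adjusted p = 0.745). Jmjd1c 1 and control 4 are its highest libraries of their groups, and control 1 is the lowest of all 7.

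H2-Eb1, the beta chain of the E molecule, had 4576, 2563 and 2935 in Jmjd1c libraries, against 2537, 4005, 3325 and 11378 in control libraries. By limma its log2 fold change was -0.44 ± 0.40 (95% interval -1.32 to 0.43, adjusted p = 0.569) and 0.01 ± 0.19 without control 4 (interval -0.40 to 0.41, adjusted p = 0.985). The 7 libraries stand in the same order as for H2-Aa, and in that of H2-Ab1 but for Jmjd1c 3 and control 3. The alpha chain that would pair with it is not made in mice of the b haplotype, to which C57BL/6 belongs. The entry for the E alpha pseudogene, H2-Ea-ps, had 0 reads in 7 of 7 libraries, which allows a value of up to 2.4 to 3.62 normalized read counts by library, and H2-Eb2 had 0 to 2.33.

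Cd74, the invariant chain, lies on chromosome 18 (60803848 to 60812652, plus strand, GRCm38). It had 26028, 15743 and 16467 normalized read counts in Jmjd1c libraries, against 15039, 23170.2, 19300.2 and 63066 in control libraries. Its means were 19413 ± 5741 in Jmjd1c libraries (SD, n = 3) and 30144 ± 22198 in control libraries (SD, n = 4). By limma the log2 fold change was -0.43 ± 0.38 (95% interval -1.27 to 0.40, adjusted p = 0.559). Without control 4 it was 0.0016 ± 0.18 (interval -0.38 to 0.38, adjusted p = 0.996). The groups overlap, and the interval over all 7 libraries is wide enough to hold differences in either direction. The interval without control 4 is narrower.

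**Figure D2:**
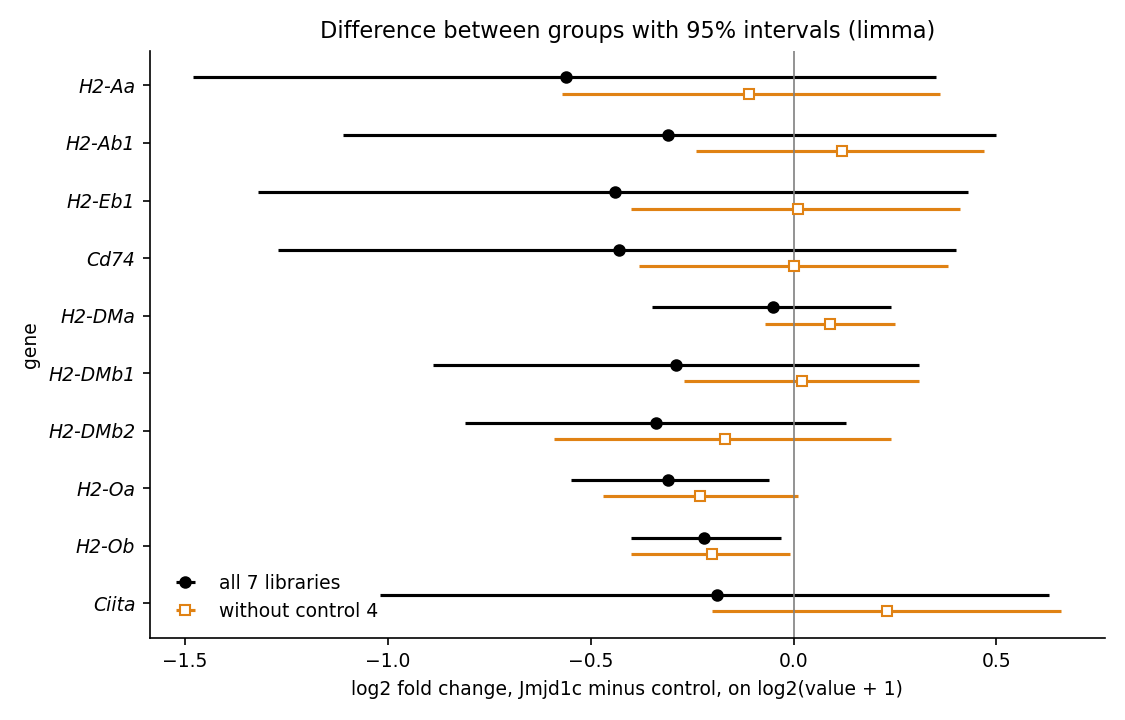
Log2 fold change of each of the 10 genes, Jmjd1c minus control, on log2 of the value plus 1, with 95% intervals from limma over all 7 libraries (black) and without control 4 (orange). The black estimates are all below 0 (-0.56 for H2-Aa to -0.05 for H2-DMa), and the orange intervals are narrower for each gene except H2-Ob, whose interval is about as wide, with Cd74, H2-Eb1 and H2-DMb1 at 0.0016, 0.01 and 0.02.

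Among the DM chains, H2-DMa varied least. It had 1863, 1659 and 1914 normalized read counts in Jmjd1c libraries, against 1606, 1738, 1747 and 2553 in control libraries, a log2 fold change of -0.05 ± 0.13 (95% interval -0.35 to 0.24, adjusted p = 0.854 by limma) and 0.09 ± 0.07 without control 4. Control 4 was 1.5 times the mean of controls 1 to 3, less than for the antigen-presenting chains. H2-DMb1, the main beta chain, had 549, 429 and 386 in Jmjd1c libraries, against 371, 499.7, 469.7 and 1047 in control libraries (-0.29 ± 0.27, adjusted p = 0.590 by limma, and 0.02 ± 0.14 without control 4). H2-DMb2 had 77.0, 53.6 and 57.5 in Jmjd1c libraries, against 68.0, 79.7, 62.9 and 113 in control libraries (-0.34 ± 0.21, adjusted p = 0.398 by limma, and -0.17 ± 0.19 without control 4). Exons of H2-DMa overlap the opposite-strand gene Brd2, which had 672 to 681 in Jmjd1c libraries and 629 to 647 in control libraries. For both beta chains the groups overlap, and control 4 is again the highest library. Their separate values are uncertain, since 27.2% of the 50-base stretches of the longest H2-DMb1 transcript also occur in H2-DMb2.

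Of the DO chains, H2-Oa was also highest in control 4, at 1.22 times the mean of controls 1 to 3, and H2-Ob was not. H2-Oa, the alpha chain of the DM inhibitor, had 196, 174 and 184 normalized read counts in Jmjd1c libraries, against 207, 209, 237 and 266 in control libraries. It is the one gene of the 10 whose groups do not overlap, with each Jmjd1c library below each control library; 7.10% of all genes tested were separated in that direction. By limma the log2 fold change of H2-Oa was -0.31 ± 0.11 (95% interval -0.55 to -0.06, unadjusted p = 0.0177, adjusted p = 0.165), so it did not pass over all genes tested. Without control 4 it was -0.23 ± 0.11 (interval -0.47 to 0.01, adjusted p = 0.288). Exons of H2-Oa overlap the opposite-strand gene BC051537, which had 90.2, 96.9 and 91.6 in Jmjd1c libraries and 107, 91.7, 108 and 129 in control libraries (-0.22 ± 0.14, adjusted p = 0.399 by limma), and whether counting used the strand is not given in the sources used here, so their reads cannot be told apart.

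H2-Ob, the beta chain of DO, had 723, 691 and 871 normalized read counts in Jmjd1c libraries, against 858, 849.7, 908 and 908 in control libraries. Jmjd1c 3 lies above 2 control libraries, and the other Jmjd1c libraries lie below all 4. By limma its log2 fold change was -0.22 ± 0.08 (95% interval -0.40 to -0.03, unadjusted p = 0.0239, adjusted p = 0.187), and -0.20 ± 0.09 without control 4 (interval -0.40 to -0.01, adjusted p = 0.262). It is also the one gene of the 10 that is not highest in control 4, where it was 1.04 times the mean of controls 1 to 3.

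Ciita, the transactivator of the family, was itself not called. The gene lies on chromosome 16 (10480059 to 10528418, plus strand, GRCm38). It had 210.2, 164 and 136 normalized read counts in Jmjd1c libraries, against 106, 183, 149 and 462 in control libraries. By limma its log2 fold change was -0.19 ± 0.38 (95% interval -1.02 to 0.63, adjusted p = 0.814), and 0.23 ± 0.20 without control 4 (interval -0.20 to 0.66, adjusted p = 0.574). Control 1 is the lowest library and control 4, at 3.15 times the mean of controls 1 to 3, the highest, which are also the lowest and highest libraries of Cd74. Ciita is transcribed from separate promoters in different cell types, which a gene-level count does not tell apart. Its exons overlap those of the opposite-strand gene Dexi, which had 14.1 to 19.9 in Jmjd1c libraries and 14.5 to 37.6 in control libraries.

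**Figure D3:**
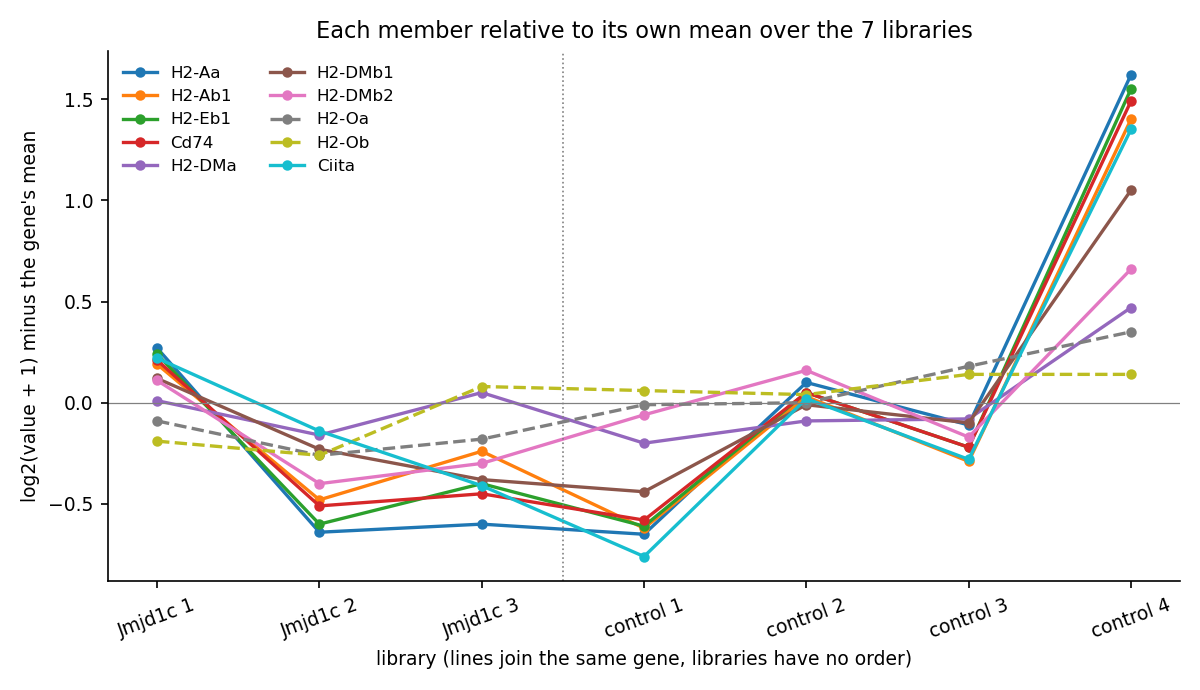
Log2 of the value plus 1 minus the gene's mean over the 7 libraries, one line per gene; lines join values of one gene and the libraries have no order. Cd74, H2-Aa, H2-Ab1 and H2-Eb1 move together and reach a mean of 1.52 in control 4, Ciita and H2-DMb1 follow them, and H2-Oa and H2-Ob (dashed) stay closer to 0 in that library.

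The level of Cd74 and the antigen-presenting chains varied across the libraries in a common pattern. The mean centred log2 level of Cd74, H2-Aa, H2-Ab1 and H2-Eb1 was 0.23, -0.56 and -0.42 in Jmjd1c libraries, against -0.61, 0.06, -0.21 and 1.52 in control libraries. Each of the 4 was set against the mean of the other 3, since a gene is close to a mean that it is part of, and the root mean square distance over the 7 libraries, on the log2 scale, was 0.031 for H2-Eb1, 0.036 for Cd74, 0.124 for H2-Ab1 and 0.127 for H2-Aa. From the mean of all 4, Ciita lay at 0.181 and H2-DMb1 at 0.232, while H2-DMb2 (0.397), H2-DMa (0.498), H2-Oa (0.552) and H2-Ob (0.653) lay farther away. For H2-Ob, 2432 genes outside the family were closer to the mean, against 25 for Ciita. The distances describe 7 libraries of which 1 is far from the rest.

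Setting each gene against Cd74 in the same library restates this division as ratios. The ratios are no second test, since Cd74 is part of the mean used for the distances. The ratio of one gene to another depends on their lengths, so only its spread over the libraries is read here. H2-Eb1 had 16.3 to 18.0 normalized read counts per 100 of Cd74 over the 7 libraries, a 1.11-fold spread. H2-Aa had 23.4 to 28.4 and H2-Ab1 24.3 to 29.9, spreads of 1.21-fold and 1.23-fold, so the antigen-presenting chains kept nearly one ratio to the invariant chain while Cd74 itself varied 4.19-fold. Ciita had 0.708 to 1.04 per 100 of Cd74 (1.47-fold) and H2-DMb1 1.66 to 2.72 (1.64-fold). The ratio of H2-DMa to Cd74 spread 2.87-fold, that of H2-Oa 3.27-fold and that of H2-Ob 3.97-fold, with the lowest ratio in control 4 for each.

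**Figure D4:**
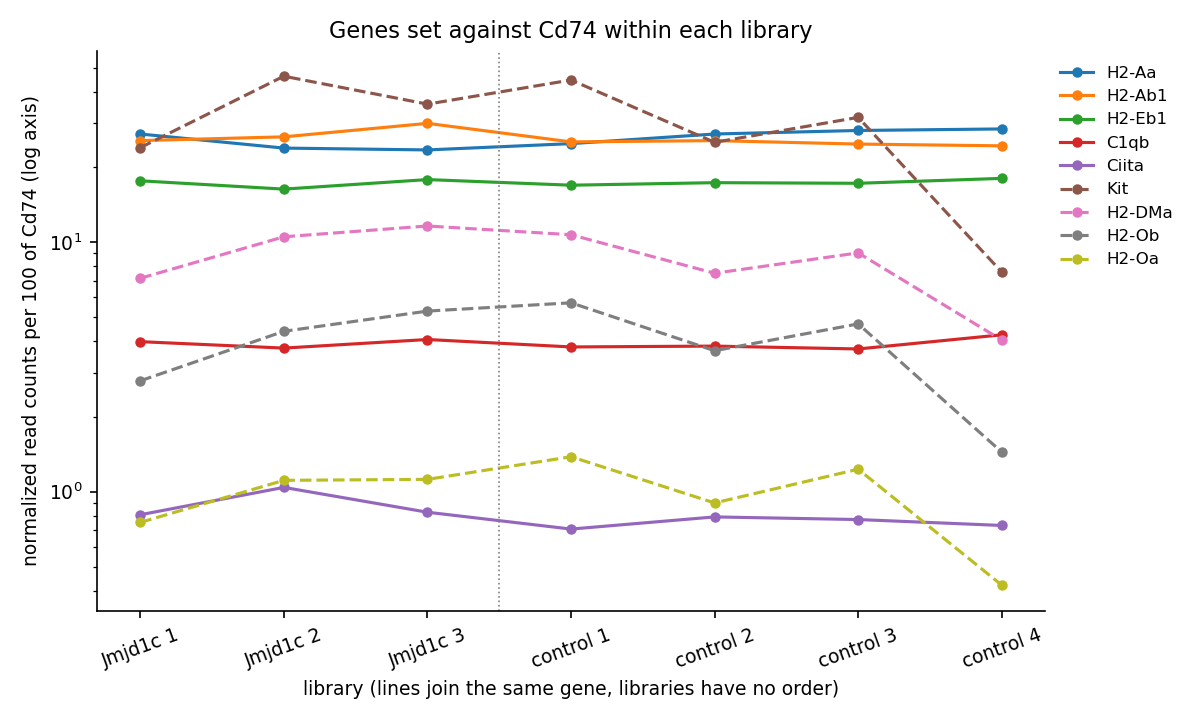
Normalized read counts per 100 of Cd74 in each library on a log axis, for genes of the class II family, the macrophage gene C1qb and the LSK gene Kit; libraries have no order. The solid lines of H2-Aa, H2-Ab1, H2-Eb1, C1qb and Ciita are nearly flat (for example 3.73 to 4.25 for C1qb), and the dashed lines of H2-DMa, H2-Oa, H2-Ob and Kit drop in control 4, where Kit is at 7.58. C1qb is the gene outside the family closest to the mean of Cd74 and the antigen-presenting chains, so its flat line follows from that.

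The genes outside the family whose profile was closest to the mean of Cd74, H2-Aa, H2-Ab1 and H2-Eb1 were looked for among 9649 genes with a mean of at least 50. The 8 closest were C1qb (distance 0.05), Aif1 (0.065), Mrc1 (0.094), Cd14 (0.122), Clec4b1 (0.123), Clec10a (0.13), Ly86 (0.131) and Adap2 (0.133), over 7 libraries. C1qb, a chain of complement C1q made by macrophages, had 1038, 592 and 670.4 normalized read counts in Jmjd1c libraries, against 572, 887, 720.3 and 2682 in control libraries. Per 100 of Cd74 it ranged 1.14-fold, as little as the antigen-presenting chains. That small range follows from its place as the gene closest to a mean that includes Cd74. Mrc1, the macrophage mannose receptor, had 214, 110.3 and 134 in Jmjd1c libraries, against 128, 197, 147 and 561 in control libraries. C1qb and Clec10a are also in the marker lists for macrophages and dendritic cells, and none of the 8 was called between the groups.

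Markers of other class II-positive cells were measured in the same libraries. All 18 macrophage and monocyte markers were highest in control 4, beside 17.5% of all genes tested, and none was at 0 in every library. Their summed level was 4725 to 7892 in Jmjd1c libraries, against 5407 to 7459.9 in controls 1 to 3 and 19303 in control 4. Adgre1, which encodes the F4/80 antigen, had 516, 294 and 279 in Jmjd1c libraries, against 316, 489, 457 and 1381 in control libraries, and its ratio to Cd74 varied 1.40-fold. The summed level of the markers thus moved with Cd74 and the antigen-presenting chains, also in Jmjd1c 1, the highest Jmjd1c library of both. Single markers differed: Csf1r, C1qc and Spic had 1093, 95.1 and 99.8 in Jmjd1c 3, against 988, 93.5 and 99.3 in Jmjd1c 1. Cd163 in control 4 was 1.19 times the mean of controls 1 to 3.

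Of the dendritic cell markers, 9 of 13 tested were highest in control 4, and their summed level was 3409.7 to 4389 in Jmjd1c libraries, against 3711 to 4431 in controls 1 to 3 and 7749 in control 4. Cd209a, a lectin of dendritic cells, had 1177, 590.4 and 417 in Jmjd1c libraries, against 746, 1073, 1065 and 3158 in control libraries. Wdfy4, Ccr9, Bst2 and Tcf4 of the same list were highest in other libraries than control 4. Wdfy4 had 559, 551 and 565 in Jmjd1c libraries, against 518, 508, 487 and 478 in control libraries. The B cell markers summed to 6732 to 18796 in Jmjd1c libraries, against 9989 to 13325 in controls 1 to 3 and 10636 in control 4, most of it Ighm. Pax5, the transcription factor that defines B cells, was near 0, at 0 to 0.827 in Jmjd1c libraries and 0 to 2.33 in control libraries. Of the 9 B cell markers tested, 5 were highest in control 4, beside 17.5% of all genes tested. A log2 fold change below 0 was found for 8 of the 9, with a median of -0.96, and -0.72 without control 4. At an unadjusted p under 0.05 there were 6 of 9, beside 19.7% of all genes tested, and 0 of 9 were called by limma. Bank1, an adaptor of B cell receptor signalling, had 62.9, 51.5 and 30.5 in Jmjd1c libraries, against 80.8, 89.3, 82.8 and 115 in control libraries (-0.96 ± 0.23, adjusted p = 0.0579 by limma and 0.0123 by DESeq2). Like H2-Oa, Bank1 was lower in each Jmjd1c library than in each control library. The highest B cell sum was in Jmjd1c 3, in which the class II genes were not high. The part of these cell types in the values of the class II genes, H2-Oa and H2-Ob included, was not tested. In a bulk library, fewer cells of a type and less RNA per cell cannot be told apart.

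The LSK genes did not share the high values of control 4. The 10 genes summed to 26725 to 30298 in Jmjd1c libraries, against 28246 to 30147 in controls 1 to 3 and 25761 in control 4, and 1 of 10 was highest in control 4. Kit ranged 6.09-fold per 100 of Cd74, the lowest ratio again being that of control 4. Between the groups 0 of 18 macrophage and monocyte markers, 0 of 13 dendritic cell markers and 0 of 10 LSK genes were called by limma.

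**Figure D5:**
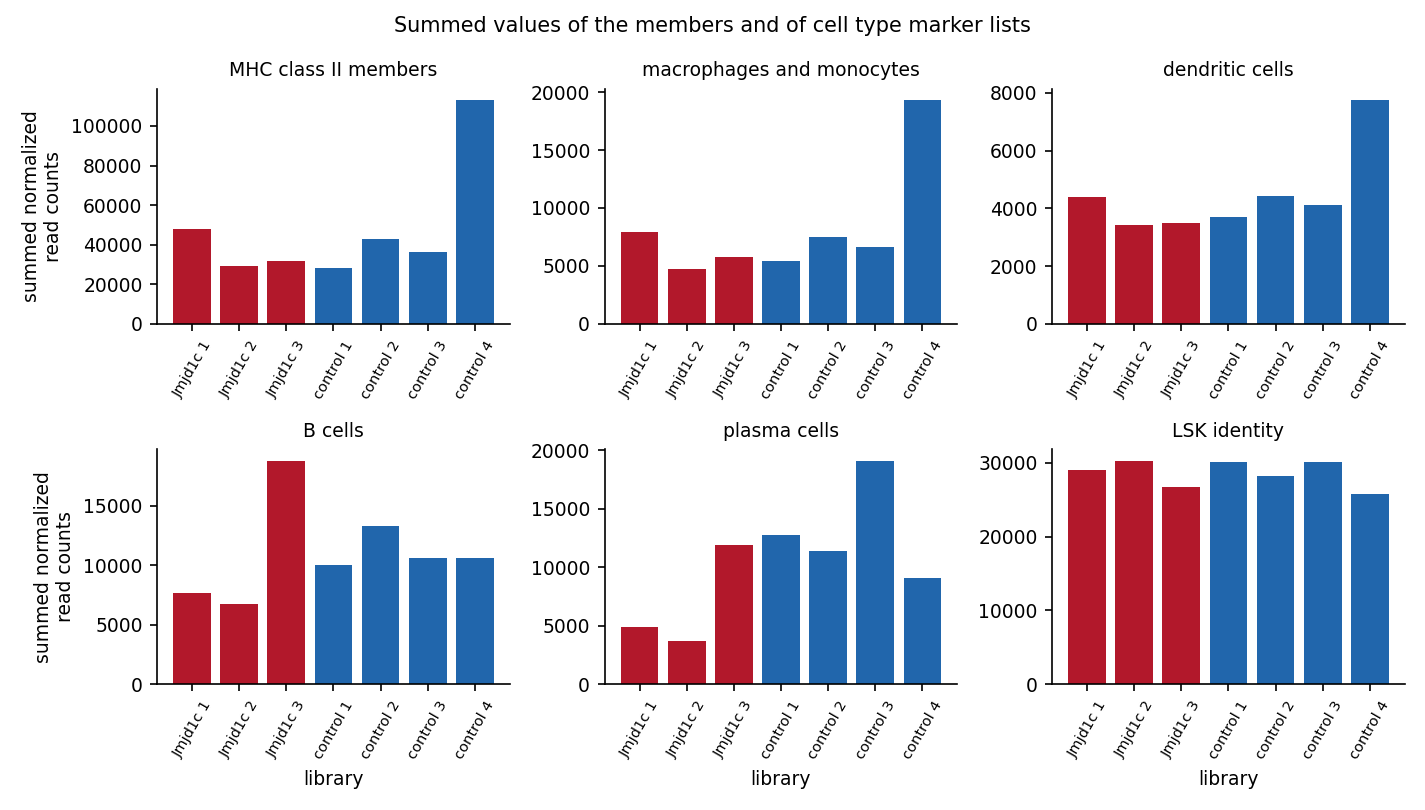
Summed normalized read counts per library of the 10 class II genes and of 5 marker lists, each panel with its own axis from 0, Jmjd1c libraries left of control libraries. Control 4 has the highest bar for the class II genes (113029), the macrophage and monocyte list (19303) and the dendritic cell list (7749), and the lowest bar for the LSK list (25761).

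None of the factors that act on class II promoters was called. Of 20 genes of this list (RFX and NF-Y subunits, Creb1, interferon response factors, the interferon gamma receptor and its kinases, and coactivators), 19 were tested and 0 were called in either direction. Their median log2 fold change was -0.06, against -0.008 over all genes tested, and 6 of 19 were highest in control 4. Rfx5, the DNA-binding subunit of RFX, had 91.9, 129 and 110.4 in Jmjd1c libraries, against 125, 116, 106 and 90.1 in control libraries. The NF-Y subunit gene Nfyc had 228, 255 and 279 in Jmjd1c libraries, against 222, 198, 192 and 202 in control libraries, with an adjusted p of 0.124 by limma (log2 fold change 0.32 ± 0.10). Jak1, a kinase of the interferon receptors, had 2537, 2674 and 3094 in Jmjd1c libraries, against 2335, 2337, 2421 and 2189.6 in control libraries (0.25 ± 0.07, adjusted p = 0.1 by limma and 0.0385 by DESeq2). Unlike Ciita, none of Rfx5, Nfyc and Jak1 was highest in control 4.

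The genes of peptide loading and turnover gave 0 of 14 calls. Their median log2 fold change was -0.21, and -0.05 without control 4, and 11 of 14 were highest in control 4. Their summed level was 13513 to 16751 in Jmjd1c libraries, against 14419 to 17144 in controls 1 to 3 and 28526 in control 4. Ctss, the protease that trims the invariant chain in many antigen-presenting cells, had 1801, 1125 and 1371 in Jmjd1c libraries, against 1376, 1822, 1689 and 4030.2 in control libraries, and its ratio to Cd74 varied 1.43-fold. March1, a ubiquitin ligase that removes class II molecules from the surface, had 78.6, 41.2 and 57.5 in Jmjd1c libraries, against 73.6, 82.1, 81.6 and 188 in control libraries (-0.77 ± 0.31, adjusted p = 0.204 by limma). Ifi30, a thiol reductase of endosomes, had 109, 60.8 and 99.8 in Jmjd1c libraries, against 92.8, 138, 126 and 225 in control libraries (-0.65 ± 0.27, adjusted p = 0.217 by limma). Both overlap between the groups and are highest in control 4, like Cd74.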

How the data were processed

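Bulk RNA-seq libraries of sorted LSK cells were prepared with the SMARTer Ultra Low RNA kit and an Illumina paired-end kit, per the labels. Per the submitters' processing notes, the tools were STAR, HTSeq 0.6.1p1, DESeq 1.18.0 and Trim Galore 0.2.8, and the build mm10. The authors deposited normalized read counts, a signal of reads divided by a size factor. Whole reads were recovered for 100% of values (tolerance 0.01 read). Of 39179 identifiers, 37607 matched a symbol (GENCODE M21). The 12813 genes that reached 10 in 3 or more libraries were tested on log2(value + 1) with limma 3.58.1 (trend, R 4.3.3), with Benjamini-Hochberg adjustment over all tested genes and a threshold of 0.05. Such fold changes understate changes of low genes. edgeR 4.0.16 and DESeq2 1.42.0 on recovered reads were among 19 alternatives. The limit for 0 reads (3 reads) covers counting error only. Named were the 10 genes, Jmjd1c, the genes called in each pathway list or else the 2 with the smallest p, and the 8 genes closest in profile; Rfx5, Ctss, genes overlapping a member, and marker genes given as examples were chosen after their values were seen. The 10 genes, 7 pathway lists and 9 cell type lists were chosen with earlier results of these data known. The fits were tested on simulated data.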

Additional observations from a re-analysis of the deposited data

Results flagged for a closer look

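Control 4 stood apart from the other 3 control libraries for 3 of the 10 genes, in that its gap to the next control exceeded Dixon's 95% critical share of the range for 4 samples. These were H2-Eb1, with 11378 normalized read counts and a gap of 0.834 of the range, Cd74, with 63066 and 0.831, and H2-DMa, with 2553 and 0.851. H2-Aa (0.821), H2-Ab1 (0.816) and H2-DMb1 (0.81) fell just short in the same library. Chance flags about 1 group in 20. The flags are not independent of each other, since they concern 1 library, in which 18 of 18 macrophage and monocyte markers were also highest; the part of these in the class II values was not tested.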

How the results depend on the processing

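None of the 10 genes was called under any of the 19 alternatives, with a smallest adjusted p of 0.0984 (H2-Oa, GC content correction). The members kept their direction in 177 of their comparisons with an alternative and reversed in 13. H2-Ab1 was 0.12, H2-Eb1 0.01, Cd74 0.0016, H2-DMa 0.09, H2-DMb1 0.02 and Ciita 0.23 (log2) both without control 4 and with a replicate block, in which control 4 has no partner, and H2-DMa was 0.01 without Jmjd1c 2. Mif reversed to -0.23 under GC content correction. The range over alternatives was -0.69 to 0.0 for Cd74, -0.86 to -0.11 for H2-Aa, -0.56 to 0.12 for H2-Ab1, -0.71 to 0.01 for H2-Eb1, -0.13 to 0.09 for H2-DMa, -0.48 to 0.02 for H2-DMb1, -0.47 to 0.23 for Ciita, -0.42 to -0.23 for H2-Oa and -0.32 to -0.15 for H2-Ob. H2-DMb2 ranged from -0.5 to -0.17. The count of genes called over the whole table, 231, was 0 by limma without the intensity trend, 14 with the replicate block, 590 by DESeq2, 79 under GC content correction, 716 at a threshold of 0.1, and 3 to 631 when 1 library was left out; the cause was not tested. Jmjd1c had a log2 fold change of -0.89 and an adjusted p of 0.117 without the intensity trend. Equal replicate numbers do not pair these libraries (correlations -0.152, -0.002 and 0.017). With 3 and 4 libraries, the intervals of Cd74 and the antigen-presenting chains are wide. H2-DMb2, at 49 to 129 reads, is the gene most limited by depth.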

Other observations

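Class I molecules present peptides from the cytosol. Of 12 class I and class I loading genes, 0 were called by limma over all 7 libraries, beside 1.80% of all genes tested. Without control 4, 5 of 12 were called (Tap1, Tapbp, Nlrc5, Pdia3 and Calr), beside 1.66% of all genes, and DESeq2 over all 7 libraries called 4 of 12 (the same without Nlrc5), beside 5.21%. By edgeR 0 of 12 were called, beside 1.82%. The calls thus depend on the setting. For Tap1, Tapbp and Calr the limma adjusted p was 0.132, 0.2 and 0.0893 under GC content correction. It was 0.253, 0.255 and 0.244 without Jmjd1c 2, and 0.0315, 0.0261 and 0.0623 without Jmjd1c 1. Of the 12, 11 had a log2 fold change above 0, against 6208 of 12813 genes at or above 0 in all, and 7 had an unadjusted p under 0.05, beside 19.7%. The median was 0.26, and 0.28 without control 4. Tap1, a subunit of the peptide transporter, had 1108, 1279.8 and 1513 normalized read counts in Jmjd1c libraries, against 798, 1019.8, 816 and 1088 in control libraries (0.48 ± 0.13, adjusted p = 0.071 by limma, 0.036 without control 4 and 0.00599 by DESeq2). Tapbp, which bridges the transporter and class I, had 2032, 2334 and 2356 in Jmjd1c libraries, against 1594, 1825, 1739 and 1957 in control libraries (0.33 ± 0.08, adjusted p = 0.0579 by limma and 0.0357 without control 4). Calr, a chaperone of class I folding, had 4233, 4399 and 4356 in Jmjd1c libraries, against 3744, 3559, 3331 and 3855 in control libraries (0.26 ± 0.06, adjusted p = 0.059 by limma and 0.0452 without control 4). Tap1 and Tapbp also belong to the neighbours of the class II genes in the H2 complex, of which 0 of 8 were called, and 2 of 8 without control 4, with a median of 0.22.

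The co-stimulatory genes moved across libraries in part like the class II genes: 4 of 6 tested were highest in control 4, 0 were called and the median log2 fold change was -0.43, and -0.22 without control 4. Cd86 had 256, 187 and 190.2 in Jmjd1c libraries, against 249.6, 257, 234 and 444 in control libraries (-0.45 ± 0.20, adjusted p = 0.242 by limma), and Cd40 was likewise highest in control 4, at 51.6 (-0.62 ± 0.30, adjusted p = 0.285 by limma). Of the ligands and partner receptors of CD74, 0 of 5 were called and 0 of 5 were highest in control 4. Mif, the cytokine that binds CD74, had 962, 922 and 923 in Jmjd1c libraries, against 867, 938, 793 and 891 in control libraries (0.10 ± 0.07, adjusted p = 0.438 by limma). Cxcr4, a receptor that can pair with CD74, had 112, 96.9 and 107 in Jmjd1c libraries, against 129, 115, 125 and 109 in control libraries (-0.18 ± 0.12, adjusted p = 0.429 by limma).

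Of the other marker lists, 1 of 7 plasma cell genes (Igha) and 1 of 5 basophil and mast cell genes (Prss34) were called lower, and 0 of 3 T and NK cell, 0 of 7 neutrophil and 0 of 6 erythroid genes were called by limma, beside 231 of 12813 over all genes tested. Igha, the constant region of IgA, had 458, 258 and 943 in Jmjd1c libraries, against 2239, 1977, 5497 and 1283 in control libraries (-2.29 ± 0.46, adjusted p = 0.0376 by limma). Unlike the class II genes, the plasma cell list was not highest in control 4: its sums were 3704 to 11936 in Jmjd1c libraries, against 11406 to 19131 in controls 1 to 3 and 9099 in control 4. The neutrophil list (12761 in control 4, up to 13011 in controls 1 to 3) and the basophil and mast cell list (5607, up to 8679) were not highest there either. The T and NK cell list was highest in control 4, at 793, against 422 to 693 in Jmjd1c libraries and 606 to 683 in controls 1 to 3. So was the erythroid list, at 482, against 261 to 302 and 193 to 319.8.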
